A study of Mus musculus with 6 samples.

Results

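The 8 genes described here, Rgs1, Rgs2, Rgs3, Rgs10, Rgs14, Rgs16, Rgs18 and Rgs19, encode regulators of G protein signaling (RGS) and were taken by name from the 36930 features of the deposited tables. They were measured by RNA-Seq in Tregs sorted from the BM of 3 naive mice and 3 mice with chronic myeloid leukemia (CML), 1 library for each mouse. All mice were Foxp3-DTR-GFP animals of postnatal week 8, in which the Foxp3 locus drives a diphtheria toxin receptor and GFP. The CML mice had received, without irradiation, an intravenous graft of syngeneic lineage-negative c-kit+ Sca-1+ (LSK) BM cells that had been transduced with a BCR-ABL1-GFP retrovirus, and the naive mice had no leukemia. CML Tregs were taken 15 days after induction. Because the leukemic cells carry GFP as well, GFP alone does not tell them from Tregs in these mice. The paper's flow cytometry gated Tregs on CD4 besides, and its RNA-Seq methods do not state the gate.

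A receptor that couples to a G protein signals while the alpha subunit of that G protein holds GTP. RGS proteins bind the active alpha subunit through their RGS domain and speed up its GTP hydrolysis, so that the signal ends sooner. In lymphocytes, the receptors damped in this way include those for chemokines and for sphingosine 1-phosphate (S1P), which guide homing, retention in BM and egress into blood. Rgs1, Rgs2, Rgs3, Rgs16 and Rgs18 belong to the R4 subfamily, most of whose proteins are little more than an RGS domain. Rgs10 and Rgs14 belong to the R12 subfamily, and Rgs19 to the RZ subfamily.

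GENCODE M21 lists all 8 genes as protein-coding. Positions are on GRCm38, named in the submitters' processing notes. A group of 5 RGS genes of the R4 subfamily lies within 776098 bases of chromosome 1. It holds Rgs2 (chromosome 1, 143999338 to 144004161), Rgs13, Rgs1 (144242296 to 144249242), Rgs21 and Rgs18 (144752683 to 144775435), all on the minus strand. Of these neighbors, Rgs1, Rgs2 and Rgs18 had reads in all 6 libraries, and Rgs13 and Rgs21 had reads in none. Rgs16 lies farther along the same chromosome (153740349 to 153745468, plus strand), between Rgs8 and Rgsl1. Rgs3 lies on chromosome 4 (62559847 to 62704001), Rgs10 on chromosome 7 (128373621 to 128418758), Rgs14 on chromosome 13 (55369732 to 55384687) and Rgs19 on chromosome 2 (181688419 to 181693977). Exons of Rgs16 share 236 of their 2339 bases with Gm28513, an antisense gene, and whether the counting used strand is not given in the sources used here. No annotated exon of another gene overlapped those of the other 7 genes.

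RefSeq promoter sequences (GRCm38.p6) were at hand for 5 of the 8 genes, namely Rgs2, Rgs3, Rgs10, Rgs16 and Rgs19. The 250 bases before the RefSeq start are shown for Rgs16, which was higher in every CML library, for Rgs10, whose mean was lower in CML Tregs, and for Rgs2, whose libraries overlapped. The RefSeq start of Rgs10 lies inside the gene as GENCODE M21 places it, so its whole window falls within that gene. Capitals mark the GC box GGGCGG on either strand.
Rgs16, chr1:153740103-153740352, plus strand: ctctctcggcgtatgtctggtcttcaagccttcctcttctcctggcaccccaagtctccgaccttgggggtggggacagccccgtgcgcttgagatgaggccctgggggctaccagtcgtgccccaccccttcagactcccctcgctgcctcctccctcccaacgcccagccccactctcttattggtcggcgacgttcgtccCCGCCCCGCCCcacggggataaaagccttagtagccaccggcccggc
Rgs10, chr7:128418173-128418422, minus strand: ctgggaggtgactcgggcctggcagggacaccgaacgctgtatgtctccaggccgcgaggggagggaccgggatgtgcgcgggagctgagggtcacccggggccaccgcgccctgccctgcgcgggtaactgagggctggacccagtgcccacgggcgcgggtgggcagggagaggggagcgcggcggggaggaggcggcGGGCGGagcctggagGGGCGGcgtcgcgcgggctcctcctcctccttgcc
Rgs2, chr1:144004150-144004399, minus strand: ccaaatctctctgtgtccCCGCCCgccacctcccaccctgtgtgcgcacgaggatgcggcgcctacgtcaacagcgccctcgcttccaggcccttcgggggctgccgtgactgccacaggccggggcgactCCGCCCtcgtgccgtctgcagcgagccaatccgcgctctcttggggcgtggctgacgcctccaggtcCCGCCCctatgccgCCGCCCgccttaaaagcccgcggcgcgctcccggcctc

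The Rgs16 sequence held 2 overlapping GC boxes, 47 and 42 bases before the start, Rgs10 held 2 and Rgs2 held 4. A GC box occurred in 32.7% of the 32851 promoter windows of this length in the table. GC made up 66.4% of the Rgs16 window, 76.4% of that of Rgs10 and 72.4% of that of Rgs2, with a median of 52.4% over all windows. The letters TGANTCA of AP-1 (6.75% of all windows), TGACGTCA of the cAMP response element (1.55%), TGGAAA of NFAT (18.6%) and TATAAA (12.4%) were found on neither strand of these 3 windows. TATAAA was present in both windows listed for Rgs3. The motifs were chosen after the expression values were seen, no binding was measured here, and a match of letters is a description only.

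The values are used as RPKM, reads scaled to feature length and library depth, so that levels can be compared between genes. A value of 0.001 marks features without reads and was set to 0. Reads per library, estimated from the spacing of the values of short RNA genes, numbered 5187987 to 9751911 for naive mice and 829181 to 7613827 for CML mice. CML replicate 2 had the fewest, and 50.7% of its summed RPKM came from its 10 highest features (28.5% to 31.3% in the other 5 libraries). The summed RPKM of 8 neutrophil markers was 8.99, 203 and 211 in CML replicates 1, 2 and 3, and 24.0 to 53.1 in naive libraries. The sum of 7 erythroid markers was 124, 35.6 and 206 in CML Tregs, and 5.01 to 29.6 in naive Tregs. All 6 Treg identity markers had reads in every library, and Foxp3 had 297 to 367 RPKM in naive and 299 to 468 RPKM in CML mice. Summed markers of monocytes (31.0 to 61.3 RPKM over all libraries), stem and progenitor cells (11.2 to 20.4) and CD8 T and NK cells (27.6 to 79.9) overlapped between the groups.

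All 8 genes had reads in every library and averaged 1 RPKM or more over the 6 libraries, which was the condition for testing. Within each library their levels spanned a wide range. Rgs1 lay between the 95.8th and the 98.9th percentile of the 13923 genes tested in every library, and Rgs10 between the 90.4th and the 97.8th. Rgs18 lay between the 16.7th and the 51.9th percentile.

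**Figure D1:**
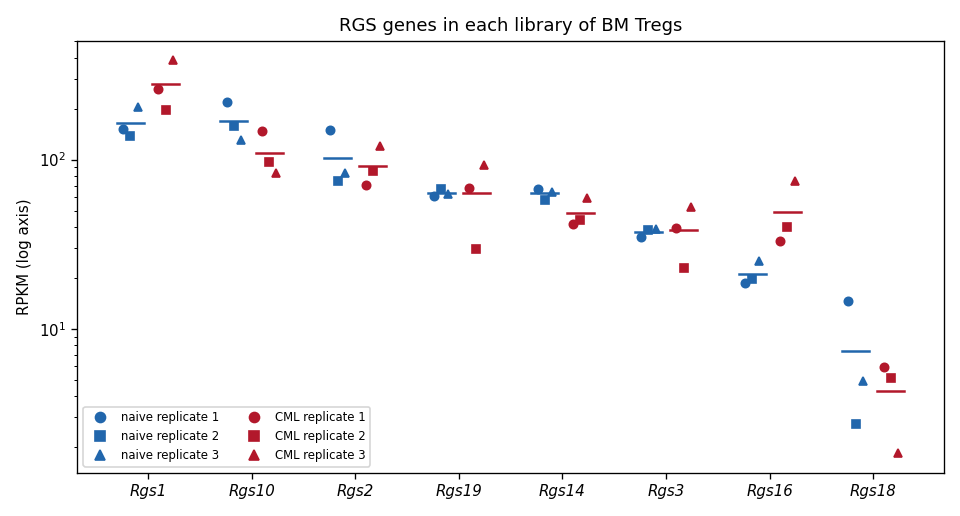
RPKM of the 8 RGS genes (y axis, log scale) in each library of naive (blue) and CML (red) BM Tregs, with a horizontal bar at each group mean. Genes are ordered by their mean over the 6 libraries. For Rgs16 the 3 CML libraries, at 32.9 to 75.1 RPKM, sit above the 3 naive libraries, at 18.8 to 25.2 RPKM, while the libraries of the other 7 genes overlap between the groups.

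Rgs1 and Rgs16 had higher means in CML Tregs than in naive Tregs, and Rgs10 had a lower mean. With limma's moderated test on log2(RPKM + 1) and Benjamini-Hochberg adjustment over 13923 genes, 0 of the 8 genes had an adjusted p under 0.05 (0.328 to 0.967). In the same test 0.172% of all genes passed an adjusted p of 0.05 with a fold change of at least 1.5. The share was 0.0431% on the higher side in CML and 0.129% on the lower side. At an unadjusted p under 0.05 with the same fold change, 3 of the 8 genes passed, compared with 8.55% of all genes. Of these, Rgs1 and Rgs16 were on the higher side (2.61% of all genes) and Rgs10 on the lower side (5.94%). A log2 fold change above 0 was found for 2 of the 8 genes and for 35.7% of all genes. The median log2 fold change of the 8 genes was -0.13, and that of all genes tested was -0.18. Scaling the libraries in other ways moved the latter to between -0.12 and -0.01, so that a fold change near 0 has no firm sign.

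**Figure D2:**
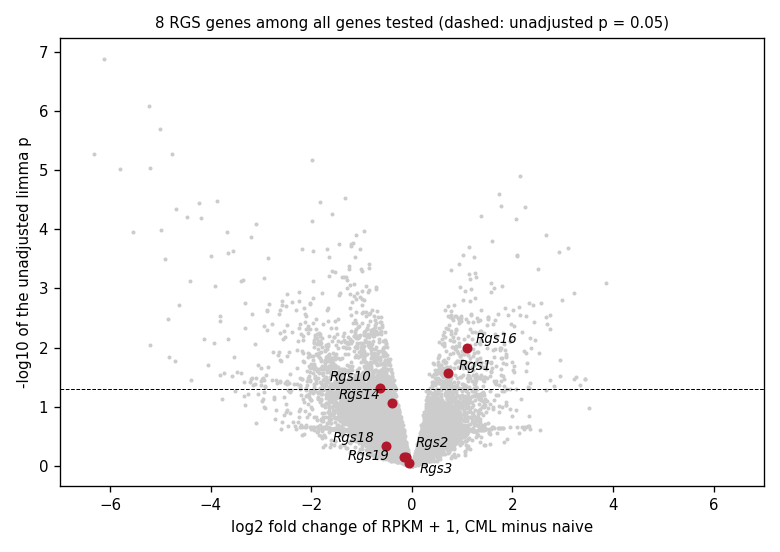
Each grey point is 1 of the 13923 genes tested, by its log2 fold change between CML and naive Tregs (x axis, RPKM + 1) and the -log10 of its unadjusted limma p (y axis). The 8 RGS genes are red, and Rgs16, Rgs1 and Rgs10 lie above the dashed line at an unadjusted p of 0.05.

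Rgs16 encodes a small RGS protein that acts on alpha subunits of the Gi and Gq classes and is known to be induced in activated T cells. It had 18.8, 19.8 and 25.2 RPKM across naive replicates 1 to 3 and 32.9, 39.8 and 75.1 RPKM across CML replicates 1 to 3. The groups did not overlap, and CML replicate 3 was well above the other CML libraries. Of the 8 genes only Rgs16 had groups without overlap, which 17.1% of all genes tested showed, 4.84% with the CML libraries on the higher side. The naive mean was 21.2 ± 3.47 RPKM and the CML mean 49.3 ± 22.6 RPKM (SD, n = 3 each). The log2 fold change was 1.10 (standard error 0.33, 95% confidence interval 0.34 to 1.85, limma unadjusted p = 0.0102, adjusted p = 0.328), which ranked 383 from the top among the genes tested. An exact permutation test (2-sided, 20 assignments) gave p = 0.1, the lowest value possible with 3 mice a group.

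The Rgs16 values rest on about 77 reads in CML replicate 2 and on about 228 to 587 reads in the other 5 libraries, taking the longest coding transcript as the length. Without CML replicate 3, the library with the highest sum of erythroid and of neutrophil markers, the log2 fold change of Rgs16 was 0.75. Without CML replicate 2 it was 1.20. The part of other cells in the Rgs16 difference was not tested. In such bulk libraries, a change in the share of a kind of cell and a change in the RNA of each cell cannot be told apart.

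Rgs1 encodes an RGS protein that is abundant in activated lymphocytes and damps their chemokine receptor signals. It had 151, 138 and 205 RPKM across naive replicates 1 to 3 and 261, 195 and 386 RPKM across CML replicates 1 to 3. The groups overlapped, because CML replicate 2 lay below naive replicate 3, while the other CML libraries lay above all naive ones. The naive mean was 165 ± 35.4 RPKM and the CML mean 281 ± 96.9 RPKM (SD, n = 3 each). The log2 fold change was 0.73 (standard error 0.27, 95% confidence interval 0.11 to 1.35, limma unadjusted p = 0.0270, adjusted p = 0.449). It was 0.47 without CML replicate 3 and 0.96 without CML replicate 2, and the unadjusted p was over 0.05 without CML replicate 1 or 3 or naive replicate 1 or 2 (0.0573 to 0.0905 in limma). An estimated 622 reads underlie the value of CML replicate 2, and the error from counting and amplification was not tested against the spread between mice.

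Rgs10, a short R12 protein selective for Gi alpha subunits, went the other way in its means. It had 219.6, 157 and 130.0 RPKM across naive replicates 1 to 3 and 148, 96.9 and 83.3 RPKM across CML replicates 1 to 3. The groups overlapped, with CML replicate 1 above naive replicate 3. The naive mean was 169 ± 46.0 RPKM and the CML mean 109 ± 33.9 RPKM (SD, n = 3 each). The log2 fold change was -0.63 (standard error 0.27, 95% confidence interval -1.26 to -0.01, limma unadjusted p = 0.0483, adjusted p = 0.513). Its unadjusted p was under 0.05 in only 3 of the 16 alternative fits, and the log2 fold change was -0.35 with library weights.

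Rgs14 carries, besides its RGS domain, Ras-binding domains and a motif that holds Gi alpha subunits in their GDP-bound form. It had 67.0, 57.8 and 64.8 RPKM across naive replicates 1 to 3 and 41.6, 43.7 and 59.7 RPKM across CML replicates 1 to 3. CML replicates 1 and 2 lay below all naive libraries, and CML replicate 3 lay between them. Its log2 fold change was -0.40 (95% confidence interval -0.86 to 0.07, limma unadjusted p = 0.0853, adjusted p = 0.572). CML means were thus lower for Rgs10 and Rgs14, while Rgs12, another R12 gene, had a log2 fold change of 0.29, and none of the 3 passed an adjusted p of 0.05 in limma.

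**Figure D3:**
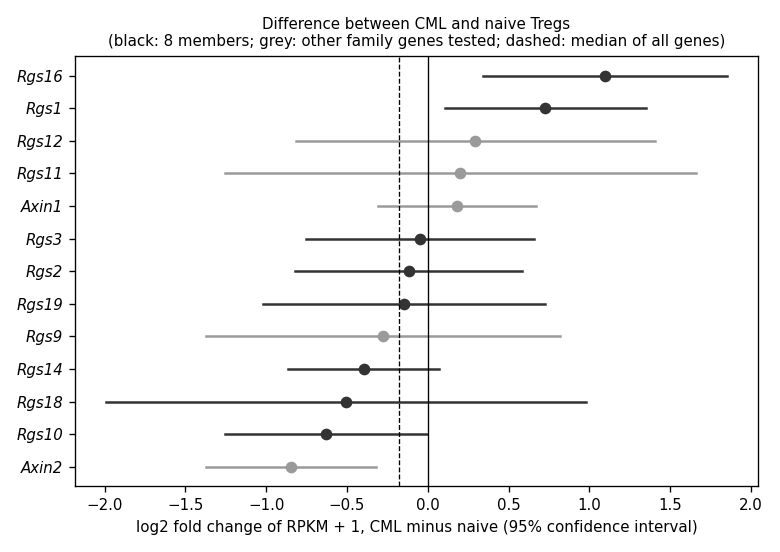
Log2 fold change of RPKM + 1 between CML and naive Tregs (x axis) with the 95% confidence interval from limma. The 8 genes are black, and the other 5 tested genes of the RGS family list are grey. The solid line marks 0 and the dashed line the median of all genes tested, -0.18. The intervals of Rgs16 and Rgs1 lie above 0, those of Rgs10 and Axin2 lie below 0, and the other 9 include 0.

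For Rgs2, Rgs3 and Rgs19, the sign of the difference changed with 1 library or with the scaling. Rgs2, which acts mainly on Gq alpha subunits, had 149, 74.9 and 83.0 RPKM across naive replicates 1 to 3 and 70.8, 85.3 and 119.7 RPKM across CML replicates 1 to 3. Naive replicate 1 was the highest library, and the other naive libraries lay within the range of the CML libraries. The log2 fold change was -0.12 (95% confidence interval -0.82 to 0.58, limma adjusted p = 0.910), and it was 0.18 without naive replicate 1.

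Rgs3, whose gene also encodes longer proteins with further domains, had 39.5, 22.9 and 52.6 RPKM in CML replicates 1, 2 and 3. Its naive libraries were close together, at 35.1, 38.5 and 39.1 RPKM. Rgs19, which binds Gi alpha subunits, showed the same layout, with 60.8, 67.1 and 62.8 RPKM across naive replicates 1 to 3 and 67.9, 29.7 and 92.6 RPKM across CML replicates 1 to 3. In both genes CML replicate 2 lay below all naive libraries. CML replicates 1 and 3 lay above all of them, replicate 1 by little. The coefficient of variation was 38.8% for Rgs3 and 50.1% for Rgs19 in CML Tregs, compared with 5.81% and 5.06% in naive Tregs. The log2 fold changes were -0.05 for Rgs3 (95% confidence interval -0.75 to 0.66, limma adjusted p = 0.967) and -0.15 for Rgs19 (95% confidence interval -1.02 to 0.73, limma adjusted p = 0.910). Without CML replicate 2, the library with the fewest reads, they were 0.27 and 0.32. About 89 reads of Rgs3 and 37 reads of Rgs19 underlie the values of that library.

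Rgs18 is best known from megakaryocytes and platelets, where its protein restrains platelet activation. Its RPKM values were 5.94, 5.11 and 1.85 in CML replicates 1, 2 and 3, and 14.7, 2.74 and 4.93 in naive replicates 1, 2 and 3. The groups overlapped fully apart from naive replicate 1, which was the highest, and CML replicate 3, which was the lowest. A log2 fold change of -0.51 was found, with a wide 95% confidence interval of -1.99 to 0.98 (limma adjusted p = 0.804), and it was 0.07 without naive replicate 1. About 9 reads each in CML replicates 2 and 3 are behind these values, against 49 to 155 in the other libraries. Of 6 megakaryocyte and platelet markers, Ppbp and Gp1bb were at 0 in all 6 libraries, and Pf4 reached 5.38 RPKM and Gp9 2.25 RPKM in naive replicate 2. Their summed RPKM was 0.68, 0.00 and 1.85 in CML replicates 1, 2 and 3 and 2.62, 7.77 and 1.94 in naive replicates 1, 2 and 3. The sum was highest in naive replicate 2, whereas Rgs18 was highest in naive replicate 1. The part of such cells in the Rgs18 values was not tested.

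The balance among the 8 genes can be read within each library, where multiplying a whole library by a factor does not change it. Rgs10 was the highest of the 8 genes in naive replicates 1 and 2, and Rgs1 was the highest in naive replicate 3 and in all CML libraries. Rgs1 made up 39.1%, 37.7% and 44.3% of the summed RPKM of the 8 genes in CML replicates 1, 2 and 3, and 21.1%, 24.9% and 33.4% in naive replicates 1, 2 and 3. The Rgs1 shares thus did not overlap, although the Rgs1 levels themselves overlapped. The shares of Rgs16 did not overlap either, nor did those of Rgs14, which were lower in CML (6.23% to 8.42%, and 9.36% to 10.5% in naive libraries). Shares of the remaining genes overlapped. Being parts of the same sum, the shares depend on each other, and they were not tested. Levels without overlap were seen for 17.1% of all genes. That is a share for levels, and none was computed for parts of a sum.

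Rgs1 was 1.77, 2.01 and 4.63 times as high as Rgs10 in CML replicates 1, 2 and 3, and 0.690, 0.881 and 1.58 times as high in naive replicates 1, 2 and 3. The ratio of Rgs16 to Rgs14 was 0.793, 0.911 and 1.26 in CML Tregs and 0.280, 0.342 and 0.389 in naive Tregs. Neither ratio overlapped between the groups, and both were higher in CML. Of 6 ratios computed, 3 did not overlap, the other being Rgs16 to Rgs10, and 3 did, namely Rgs1 to Rgs2, Rgs1 to Rgs16 and Rgs2 to Rgs18. They were picked after the values were seen and were not tested. Each of the 3 without overlap set a gene with a higher CML mean over a gene with a lower CML mean. The share of all gene pairs whose ratios do not overlap was not computed. Summed over the 8 genes, RPKM averaged 629 ± 81.1 in naive and 686 ± 177 in CML mice (SD, n = 3 each), which differed by less than the SD of either group.

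**Figure D4:**
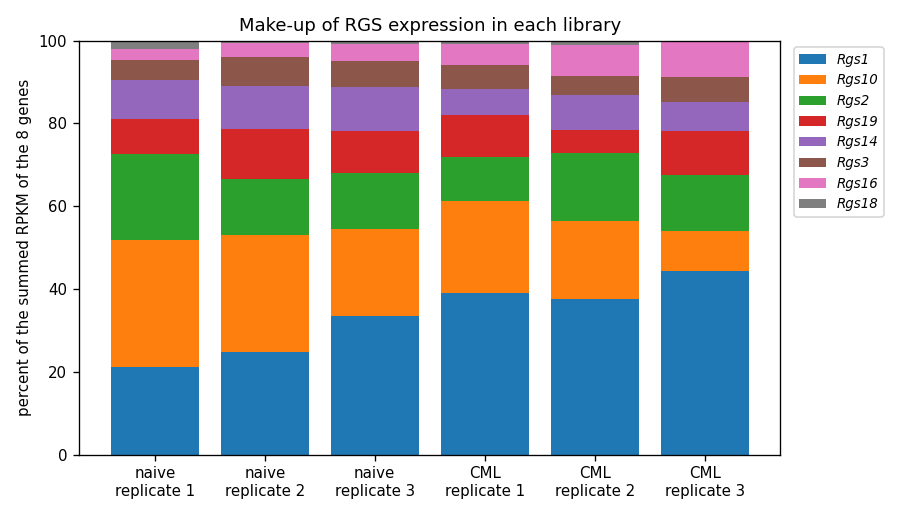
Share of each of the 8 RGS genes in their summed RPKM (y axis, percent) in the 3 naive and 3 CML libraries. The share of Rgs1 (blue, at the base) is 21.1% to 33.4% in naive libraries and 37.7% to 44.3% in CML libraries, and that of Rgs16 (pink) is 2.62% to 4.10% and 4.94% to 8.62%.

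Of the 16 other genes of the RGS family list, 9 had no reads in any library, among them Rgs4, Rgs5, Rgs7, Rgs13 and Rgs17. For Rgs13, which marks germinal center B cells, 3 reads would be worth 2.34 RPKM in CML replicate 2 and 0.199 RPKM in naive replicate 3. A low level was therefore not detectable in the former. Rgs8 and Rgsl1 had values under 1 RPKM in 2 naive libraries. The 5 tested genes were Rgs9, Rgs11, Rgs12, Axin1 and Axin2. None of them passed an adjusted p of 0.05 in limma, and 1 of them, Axin2, had an unadjusted p under 0.05 with a fold change of at least 1.5. On that lower side, 5.94% of all genes passed the same thresholds.

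Axin2, a target gene and brake of the Wnt pathway whose RGS domain binds APC rather than a G protein, had no overlap between the groups, with lower CML values. It had 42.9, 50.2 and 39.2 RPKM across naive replicates 1 to 3 and 19.9, 29.2 and 23.8 RPKM across CML replicates 1 to 3. Its log2 fold change was -0.84 (standard error 0.23, limma unadjusted p = 0.00612, adjusted p = 0.285). No overlap with lower CML values was seen for 12.2% of all genes. Rgs9 (5.81 and 6.82 RPKM on average in CML and naive Tregs), Rgs11 (6.75 and 5.23 RPKM) and Rgs12 (3.74 and 2.80 RPKM) were low and overlapped between the groups, as did Axin1 (61.4 and 53.9 RPKM).

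The alpha subunits are the proteins on which RGS proteins act. Gnai2, the main Gi alpha subunit of lymphocytes, had 391, 438 and 364 RPKM across naive replicates 1 to 3 and 395, 373 and 422 RPKM across CML replicates 1 to 3. The libraries overlapped, with a log2 fold change of 0.00 on rounding (95% confidence interval -0.33 to 0.32, limma adjusted p = 0.997). Its level was above that of Rgs1 in 6 of 6 libraries. Gnai3 (61.1 ± 11.5 and 58.9 ± 3.14 RPKM, SD, n = 3 each) and Gnaq (25.6 ± 8.41 and 24.6 ± 3.44 RPKM) overlapped as well (limma adjusted p = 0.957 and 0.996). Of the 9 alpha subunits tested, 0 passed an adjusted p of 0.05 in limma, and 1, Gna11 of the Gq class, passed the unadjusted p and the fold change, averaging 18.0 ± 2.34 RPKM in naive and 10.6 ± 2.27 RPKM in CML mice, beside 5.94% of all genes on the lower side. The unadjusted limma p of Gna11 was 0.0414, and it was 0.0581 to 0.0914 with the 3 scalings, the replicate block or library weights and 0.0694 to 0.14 without any 1 naive library or CML replicate 3.

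With a fold change of at least 1.5, 0 of the 9 beta and gamma subunits tested passed the adjusted p in limma and 1 passed the unadjusted p. It was on the lower side, which 5.94% of all genes were. This gene, the gamma subunit Gng10, had 3.17, 5.83 and 10.6 RPKM in CML Tregs and 31.7, 32.5 and 12.4 RPKM in naive Tregs. Among 7 receptor kinases and arrestins, the other route that ends receptor signals, 0 passed either p together with a fold change of at least 1.5. A log2 fold change above 0 was found for 1 of 7, compared with 35.7% of all genes. Arrb2, an arrestin named after its values were seen, was lower in every CML library (86.1 to 99.6 RPKM) than in every naive library (100.2 to 151 RPKM). Its fold change was under 1.5, and 12.2% of all genes had no overlap with lower CML values. Of 6 other modulators of alpha subunits, 0 passed the adjusted p with that fold change. Only Ric8, an exchange factor and chaperone for alpha subunits, passed the unadjusted p with it, beside 5.94% of all genes on the lower side. Ric8 averaged 35.1 ± 5.83 RPKM in naive and 21.3 ± 3.44 RPKM in CML mice (log2 fold change -0.69, limma adjusted p = 0.414). Gpsm3, another of these modulators, was also lower in every CML library (70.3 to 72.9 RPKM) than in every naive library (87.9 to 122 RPKM). It was named after its values were seen.

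Of the 16 chemokine and S1P receptors tested, 1 was higher and 1 was lower in CML Tregs with an adjusted p under 0.05. Both had a fold change of at least 1.5. Among all genes, 0.0431% passed both thresholds on the higher side and 0.129% on the lower side. Ccr8, a chemokine receptor of effector Tregs, rose from 7.99, 7.09 and 10.7 RPKM in naive replicates 1, 2 and 3 to 40.4, 32.9 and 44.9 RPKM in CML replicates 1, 2 and 3. S1pr1, the S1P receptor that drives egress, fell from 119, 131 and 85.1 RPKM to 34.4, 27.3 and 30.1 RPKM. The groups did not overlap for either receptor (log2 fold changes 2.08 and -1.82, limma adjusted p = 0.0416 and 0.0356). With any 1 library left out, the adjusted p was 0.0552 to 0.271 for Ccr8 and 0.058 to 0.222 for S1pr1. With all 6 libraries both calls were also lost with a pseudocount of 0.001, no filter, the replicate block or no trend (adjusted p 0.096 to 0.147). At the unadjusted p and the fold threshold, Cxcr3 was also on the higher side (91.2 ± 8.39 and 56.5 ± 6.49 RPKM) and Ccr7 on the lower side (2.83 ± 1.59 and 15.6 ± 6.90 RPKM), with limma adjusted p values of 0.271 and 0.238. These thresholds were passed by 2.61% of all genes on the higher side and 5.94% on the lower side. Levels did not overlap for 3 receptors on the higher side and 3 on the lower side, beside 4.84% and 12.2% of all genes. They include Cxcr4 (73.7 to 138 RPKM in CML, 58.4 to 70.1 in naive libraries) and Cxcr5 (1.64 to 5.36 and 5.83 to 10.7 RPKM). Neither of these passed the unadjusted p together with the fold threshold.

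Among 7852 other genes that averaged 10 RPKM or more (7853 for Rgs18), those with the profile most like that of Rgs16 over the 6 libraries were Ubxn2a, Endod1 and AW112010 (Pearson r of log2(RPKM + 1) 0.986, 0.983 and 0.983). For Rgs1 they were Zap70, Csnk2b and Parp12 (0.997, 0.992 and 0.986), and for Rgs10 Phf12, Ablim1 and AU040320 (0.991, 0.990 and 0.988). The profiles nearest to Rgs2 were those of Mex3c, Polr3gl and Bag4 (0.975, 0.973 and 0.969), and those nearest to Rgs14 were Gm34690, Ptpn4 and Tbc1d22b (0.998, 0.993 and 0.990). Rgs3 was followed by Tvp23b, Gimap8 and Cwc22 (0.998, 0.995 and 0.994), Rgs19 by Nr1h2, Ccdc109b and Ssb (0.997, 0.996 and 0.995), and Rgs18 by Atp5sl, Alkbh3 and Mfsd1 (0.984, 0.977 and 0.975). These values describe 6 points that share library depth and group, and so many genes were searched that high values are found for each of the 8.

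**Figure D5:**
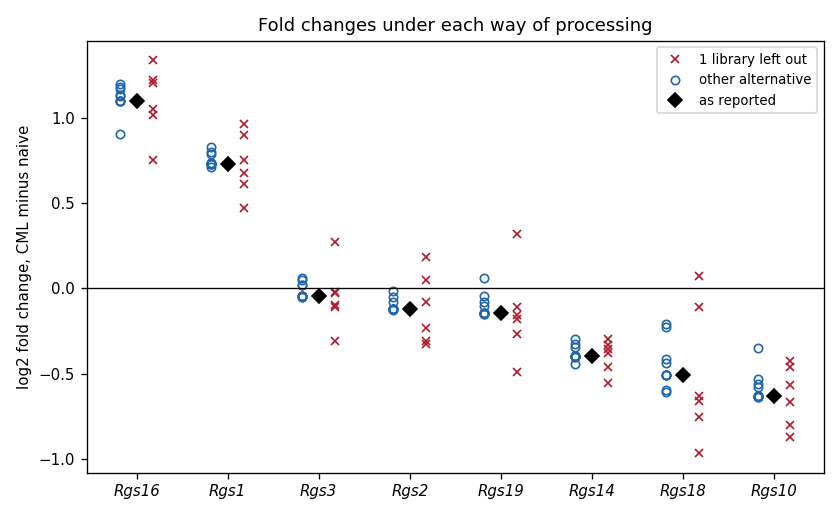
Log2 fold change between CML and naive Tregs (y axis) of each RGS gene as reported (black diamonds), with each of 10 other ways of processing (blue circles) and with each library left out in turn (red crosses). Rgs16 and Rgs1 stay above 0, at 0.75 to 1.34 and 0.47 to 0.96, Rgs10 and Rgs14 stay below 0, at -0.87 to -0.35 and -0.56 to -0.30, and the other 4 genes lie on both sides of 0.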

How the data were processed

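Total RNA of sorted BM Tregs (3 naive and 3 CML mice) was amplified with the SMART-Seq v4 kit and sequenced single-end. Read assembly with SeqMan NGen and quantification with ArrayStar were done by the authors, and the submitters' processing notes name GRCm38 and mm10. The annotation is not given in the sources used here. RPKM is the unit assumed for the deposited values, since the paper names none, because value times length of short RNA genes fell near whole multiples of a step (31.7% to 58.5% of products within 0.05 of a whole number, 10% by chance) and because sums differ between libraries (669761 to 815919). The step also gave the estimated reads, which cover counting error only and describe depth. Values of 0.001 were set to 0.

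Groups and replicate numbers came from the sample labels. CML and naive Tregs were compared with limma 3.58.1 in R 4.3.3 (lmFit and eBayes with a trend) on log2(RPKM + 1) over 13923 genes that averaged 1 RPKM or more, with Benjamini-Hochberg adjustment. The pseudocount shrinks the fold changes of low genes. Exact 2-sided permutation tests used scipy 1.17.1. Single values were read with Python 3.11.15. Positions and transcript lengths came from GENCODE M21.

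The 8 members and the gene lists were chosen with earlier results of these data known. The text names the members, the other tested genes of the RGS family list, the alpha subunits Gnai2, Gnai3 and Gnaq, and the 3 genes most like each member. It also names genes of each pathway list with an unadjusted p under 0.05, a fold change of at least 1.5 and no overlap (at most 4 in each direction). Arrb2, Gpsm3, Cxcr4, Cxcr5 and untested genes at or near 0 were named after their values were seen. Alternatives covered the pseudocount, the filter, the scaling, a replicate block, the prior variance, library weights and each library left out.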

Additional observations from a re-analysis of the deposited data

How the results depend on the processing

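Against 24 genes called in the fit as reported, 0 were called with a pseudocount of 0.001 (973 at the unadjusted p), 1 with no filter, 53 with quantile normalization and with the same 75th percentile, 52 with the same sum without the highest features, 11 without the trend and 45 with library weights. Leaving out 1 library gave 0 to 29. The cause was not tested. Same-numbered libraries belong to different mice and did not deviate together (r of deviations -0.019 to -0.002), and with the replicate number as a block 1 gene was called. No RGS member had an adjusted p under 0.05 in any of the 16 alternatives (lowest 0.197, Rgs16 with quantile normalization). The unadjusted p of Rgs16 was under 0.05 in 16 of 16 and that of Rgs1 in 11 of 16. Quantile normalization changed the split at the unadjusted p from 363 higher and 827 lower genes to 624 and 590.

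Some directions changed. Rgs3 was at 0.0184, 0.0198 and 0.0509 under the scalings by quantiles, by the 75th percentile and by the sum, and library weights put it at 0.0614 and Rgs19 at 0.0578. Gnai2 was at 0.0831, 0.069 and 0.1008 with these 3 scalings and at 0.0253 with library weights, and Gnaq at -0.1967 with library weights. With 1 library left out, Rgs2 ran from -0.3239 to 0.1847, Rgs3 from -0.309 to 0.2737, Rgs18 from -0.9638 to 0.0716, Rgs19 from -0.4896 to 0.3157, Gnai2 from -0.0627 to 0.0702, Gnai3 from -0.1021 to 0.1595, Gnaq from -0.1629 to 0.3022, Rgs9 from -0.5688 to 0.0999 and Rgs11 from -0.2872 to 0.73. Few reads underlie Rgs18 in CML replicates 2 and 3 (about 9 each) and Rgs19 in CML replicate 2 (about 37).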
